A study of Chlorella vulgaris with 6 samples.

Results

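EMS-25 is a mutant line of the unicellular green alga Chlorella vulgaris SAG 211-12, and it was set against the wild type (WT) of the same strain. The series title describes the mutants studied as producing much lipid, and no lipid value was used here. The labels call EMS-25 an EMS mutant, in the usual sense the alkylating mutagen ethyl methanesulfonate, while the protocols describe mutagenesis by UV light. Cultures of EMS-25 and of WT were grown in Bold's basal medium under continuous light and were sampled at 14 days, in stationary phase, at an optical density of 5 at 680 nm. Polyadenylated RNA was sequenced as paired reads of 75 bp, with 2 libraries of EMS-25 and 2 of WT. A UV-induced mutant of the same strain, UV-715, also has 2 libraries, which enter the estimate of spread and are given beside EMS-25 where they bear on it. EMS-25 is 1 line, so changes that go with its lipid trait and changes that go with any other difference of this line cannot be told apart. The deposited table lists 18600 assembled transcript features, and the comparison covers the 17304 with a value of at least 1 in 2 or more of the 4 EMS-25 and WT libraries. The other 1296 features were left out.

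Green algae of this kind make fatty acids in the chloroplast and join them to glycerol at internal membranes. In ageing or nutrient-poor cultures, part of this carbon is stored as triacylglycerol in oil droplets, in competition with starch and with the lipids of the photosynthetic membranes. Ethyl methanesulfonate alters single bases, mainly guanines, and so leaves many scattered point mutations in a line. The features carry assembly IDs and no gene names or sequences in the sources used here, so no enzyme of these pathways could be looked up and no marker gene of the alga could be checked. An ID names an assembly cluster (DN), a component within it (c) and a gene within that (g), in the form the Trinity assembler writes. Features of the same component were assembled from overlapping reads and can be variants or fragments of a single gene, so reads may be split between them.

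The deposited values are a normalised signal whose sums per library lie between 987345 and 1029717 in EMS-25 and WT, the form of TPM values after a further scaling. Whether they are per length is not stated in the sources used here, so levels of different features are compared on this scale only. Absolute depth is unknown. From the steps between low values, EMS-25 replicate 2 had 0.401 of the depth of EMS-25 replicate 1, and WT replicate 2 had 0.241 of the depth of WT replicate 1. EMS-25 replicates 1 and 2 listed 1485 and 3204 features at 0, against 1376 and 4177 in WT replicates 1 and 2. The 100 features with the highest signal held 29.1% and 29.3% of the total in EMS-25 and 29.4% and 29.5% in WT.

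The limma fit used all 6 libraries, with a trend of variance on intensity. Of the features it called between EMS-25 and WT, more were higher in EMS-25 than lower, and most had high signal. On log2(value + 1), 225 of 17304 features (1.3%) passed limma's test at 0.05 after Benjamini-Hochberg adjustment, 150 (0.867%) with more signal in EMS-25 and 75 (0.433%) with less. All 225 had both EMS-25 libraries on the same side of both WT libraries, as did 7640 of the 17304 features tested (44.2%). With so few libraries a called feature is likely to be separated in this way, so the separation is not further support. The excess of higher features was smaller when library medians were centred (141 higher, 114 lower). Before adjustment, 2430 features had p under 0.05. The labels call the libraries biological replicates without naming separate cultures, so every p-value measures only the spread between these libraries. A signal is a share of a library, so fewer cells that carry a transcript and less of it per cell cannot be told apart.

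The spread behind these calls came from all 6 libraries. With the EMS-25 and WT libraries alone, 85 features (0.491%) were called, of which 58 were higher (0.335%) and 27 lower (0.156%), and 79 of them were among the 225. Without WT replicate 2, the library with the most features listed at 0, 4 features were called, and without WT replicate 1, 48 were. Leaving out EMS-25 replicate 1 or 2 left 7 and 11 calls, and leaving out UV-715 replicate 1 or 2 left 60 and 59.

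**Figure D1:**
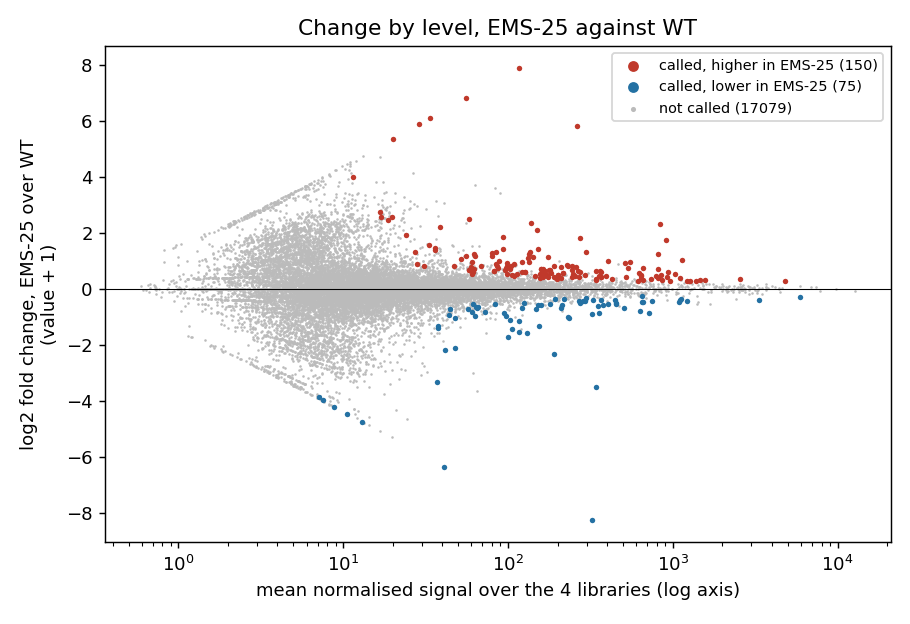
Log2 fold change of EMS-25 over WT (value + 1, vertical axis) against the mean normalised signal over the 4 libraries (log axis), 1 point per feature. Red points are the 150 features called higher in EMS-25, blue points the 75 called lower and grey points those not called. Most called points lie at higher signal, and of the 137 features at 1000 or more, 1 was separated by 2-fold.

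In the fit of all 6 libraries with the intensity trend, most called changes were moderate and sat among transcripts of high signal. The median log2 fold change was 0.69 among the higher features and -0.69 among the lower ones, and 159 of the 225 were below 2-fold. At least 2-fold were 42 higher and 24 lower features, and at least 8-fold were 7 higher and 9 lower ones. With EMS-25 and WT fitted alone, 28 higher and 17 lower features of the 85 called were at least 2-fold. Without the intensity trend, all 59 features called were (38 higher, 21 lower). The median signal of the called features was 168, against 12.9 over all features tested. The features called higher held 6.17% of the signal in EMS-25 and 4.10% in WT, and those called lower held 2.28% in EMS-25 and 3.41% in WT.

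In the fit with the intensity trend, the share of features called followed the level. No feature with a mean signal under 3 was called, and 3 of 6151 between 3 and 10 were. The share was 1.78% at 30 to 100, 7.24% at 100 to 300, 15.7% at 300 to 1000 and 11.7% at 1000 or more. Over the same levels the spread between libraries shrank: the log2 ratio between a strain's libraries had a robust SD of 0.20 in EMS-25 and 0.24 in WT at 30 to 100, against 0.05 in EMS-25 and 0.06 in WT at 1000 or more. The smallest change called was 0.88 on the log2 scale at 10 to 30 and 0.27 at 1000 or more. At 3 to 10 the smallest change called was 3.85, so a 2-fold difference was not called there at this depth.

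**Figure D2:**
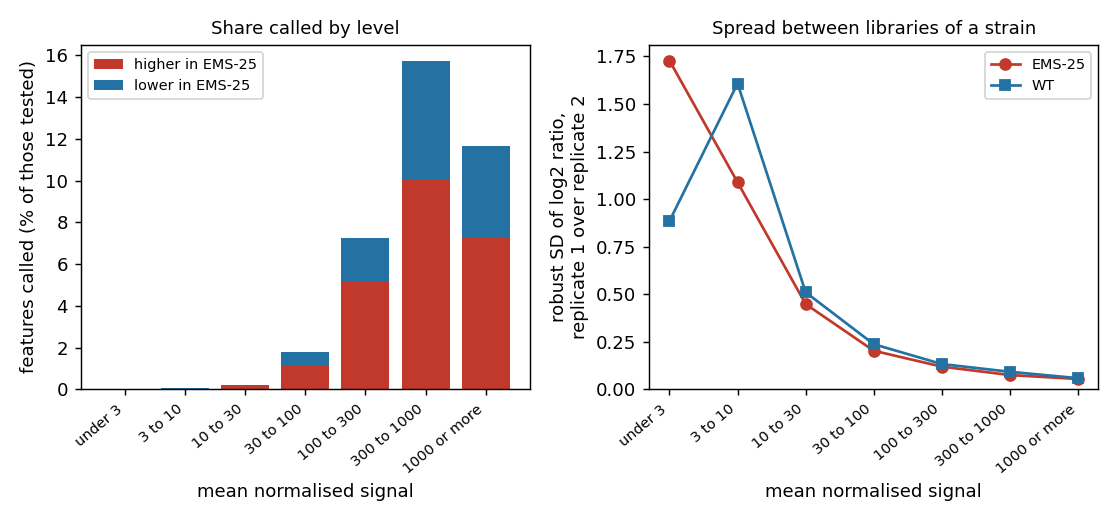
Left, features called in EMS-25 against WT as a percentage of those tested, by mean normalised signal, with features higher in EMS-25 in red and lower in blue. Right, the robust SD of the log2 ratio between the 2 libraries of a strain for EMS-25 (red circles) and WT (blue squares). The share called is highest at 300 to 1000 (15.7%), where the SD is under 0.1 in both strains. The calls are those of the fit with the intensity trend.

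Some transcripts stood high in EMS-25 and were listed at 0 in WT. They passed the filter through EMS-25 alone. Libraries listed at 0 show no spread yet count in the fit, so the p-values of these transcripts can be too small. TRINITY_DN6031_c7_g3 had 256 and 209.7 in the EMS-25 libraries, against 0 in both WT libraries (adjusted p 0.00397 by limma). TRINITY_DN5745_c0_g2 had 114 and 109 in EMS-25, against 0 in both WT libraries (adjusted p 0.00227). The strains did not overlap for either. TRINITY_DN3305_c0_g1 reached 68.3 and 65.9 in EMS-25, with WT listed at 0 (adjusted p 0.0188). TRINITY_DN5730_c0_g1 reached 51.2 and 64.1 in EMS-25, with WT listed at 0 (adjusted p 0.0248). TRINITY_DN6054_c0_g1, the lowest of these in EMS-25, had 45.9 and 35.0 there and 0 in WT (adjusted p 0.0414). All but TRINITY_DN5745_c0_g2 were listed at 0 in UV-715 too and were higher in EMS-25 than in UV-715 (adjusted p 0.00162 to 0.0169), while TRINITY_DN5745_c0_g2 had 71.1 and 35.1 in UV-715 (adjusted p 0.158 for EMS-25 against UV-715).

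Another 3 transcripts rose in EMS-25 from a low but mostly measured level in WT. TRINITY_DN2605_c0_g2 had 304 and 726 in EMS-25, against 7.67 and 7.15 in WT (log2 fold change 5.81, SE 0.40, adjusted p 0.00551). Its EMS-25 libraries were far from each other, and both were far above WT. TRINITY_DN5202_c1_g1 had 22.7 and 22.3 in EMS-25, against 1.2 and 0 in WT (log2 fold change 3.98, SE 0.54, adjusted p 0.0349). TRINITY_DN5736_c1_g1 had 35.1 and 24.9 in EMS-25, against 3.69 and 3.35 in WT (log2 fold change 2.76, SE 0.35, adjusted p 0.0285). UV-715 had 802 and 569 for TRINITY_DN2605_c0_g2, 9.82 and 11.1 for TRINITY_DN5202_c1_g1, and 7.35 and 9.77 for TRINITY_DN5736_c1_g1. The limma test of EMS-25 against UV-715 gave adjusted p 0.571, 0.393 and 0.0559. In the fit of EMS-25 and WT alone, the calls of TRINITY_DN6054_c0_g1 (adjusted p 0.0513), TRINITY_DN5202_c1_g1 (0.141) and TRINITY_DN5736_c1_g1 (0.0747) were lost. Of the 8 features with the highest fold change, 8 lost their call without WT replicate 2, 6 without WT replicate 1, 7 without either EMS-25 library and 5 without either UV-715 library. No log2 fold change moved by more than 0.63 in these fits. Without the intensity trend, 3 of the 8 lost their call (adjusted p at most 0.0917). Against a change of 1.5-fold, 5 of the 8 lost it (adjusted p at most 0.206). A pseudocount of 0.1 lost 4 of the 8 (adjusted p at most 0.149) and moved log2 fold changes by up to 3.32.

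Other features of the same components differed in their behaviour. TRINITY_DN5745_c0_g1 had 20.8 and 27.0 in EMS-25, against 63.1 and 61.4 in WT, and was not called (adjusted p 0.353 by limma). TRINITY_DN5745_c1_g1 had 2.86 and 0 in EMS-25, against 48.1 and 46.8 in WT (adjusted p 0.0817). The TRINITY_DN5745_c0 sum rose to 135 ± 0.67 in EMS-25, against 62.3 ± 1.18 in WT (adjusted p 0.00185), while the sum of cluster TRINITY_DN5745 was 137 ± 1.36 in EMS-25 and 109.7 ± 2.16 in WT (adjusted p 0.102). For TRINITY_DN6031_c7 the sum rose to 353 ± 49.8 in EMS-25, against 119 ± 1.36 in WT (adjusted p 0.00293), and the sum over the 41 features of cluster TRINITY_DN6031 was 1444 ± 96.9 in EMS-25 and 1326 ± 1.81 in WT (adjusted p 0.348). TRINITY_DN5730_c0_g2, the other feature of its component, rose as well, with 52.0 and 52.8 in EMS-25, against 19.4 and 19.6 in WT (adjusted p 0.0126 by limma). The sum over that component was 110 ± 9.66 in EMS-25 and 19.5 ± 0.15 in WT (SD, n = 2 each), a log2 fold change of 2.43 (SE 0.12, adjusted p 0.00104). This component sum was called in all 16 alternative fits. TRINITY_DN2605_c0_g1, the other feature of its component, was not called (adjusted p 0.359) and had 1441 and 969 in EMS-25, against 1672 and 1591 in WT. The TRINITY_DN2605_c0 sum was 1720.1 ± 35.2 in EMS-25 and 1639 ± 57.7 in WT, and its 95% interval ran from -0.03 to 0.17 on the log2 scale (adjusted p 0.495). For cluster TRINITY_DN5736 the sum was 229 ± 23.4 in EMS-25 and 209 ± 16.1 in WT (adjusted p 0.588). For cluster TRINITY_DN5202 it was 42.7 ± 7.97 in EMS-25 and 6.03 ± 8.53 in WT (adjusted p 0.184). The sum of cluster TRINITY_DN5730 was called (adjusted p 0.000985).

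The 2 steepest falls among called features were of features with clear signal in WT. TRINITY_DN7858_c0_g1 had 0.54 and 1.97 in EMS-25, against 658 and 624 in WT (log2 fold change -8.23, SE 0.40; limma adjusted p 0.00227). TRINITY_DN6806_c0_g1 was listed at 0 in both EMS-25 libraries, against 97.8 and 65.2 in WT (adjusted p 0.0169). Each is the only feature of its assembly cluster, so neither has another feature to be summed with. Both were listed at 0 in UV-715 as well and passed the filter only through WT. The limit given above for p-values with libraries listed at 0 holds for both. TRINITY_DN6093_c6_g3 fell to 43.1 and 70.1 in EMS-25, against 631 and 624 in WT (log2 fold change -3.49, SE 0.22, adjusted p 0.00408). It had 64.4 and 53.8 in UV-715 (adjusted p 0.877 for EMS-25 against UV-715). The sum over its component also fell, at 611 ± 16.2 in EMS-25 and 1239.8 ± 46.3 in WT (log2 fold change -1.02, SE 0.04, adjusted p 0.00086).

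A further 5 features were listed at 0 in EMS-25 and had low values in WT. They passed the filter through WT alone, and the same limit holds for their p-values. TRINITY_DN8611_c0_g1 had 0 in both EMS-25 libraries, against 21.8 and 30.1 in WT (adjusted p 0.0175 by limma). For TRINITY_DN6042_c0_g3, EMS-25 was listed at 0 and WT had 22.1 and 20.1 (adjusted p 0.0298). The others, TRINITY_DN116_c1_g1, TRINITY_DN11359_c0_g1 and TRINITY_DN577_c1_g1, were at 0 in EMS-25 and between 9.25 and 19.2 in WT (adjusted p 0.0265, 0.0444 and 0.0497). UV-715 kept all 5, with values between 7.50 and 20.6, and EMS-25 was lower than UV-715 in each (adjusted p 0.0166 to 0.0338). The calls against WT of these 5 were lost when EMS-25 and WT were fitted alone (adjusted p 0.088 to 0.228). The TRINITY_DN6042_c0 sum was 478 ± 2.11 in EMS-25 and 504 ± 7.53 in WT (adjusted p 0.451), with the other 2 features of the component at 136 to 341 in EMS-25 and 127 to 353 in WT. The sum of cluster TRINITY_DN116 was 24.7 ± 0.91 in EMS-25 and 41.2 ± 3.57 in WT (adjusted p 0.0581). That of cluster TRINITY_DN577 was 9.73 ± 1.32 in EMS-25 and 24.9 ± 12.3 in WT (adjusted p 0.233). Of the 8 features with the lowest fold change, all lost their call without WT replicate 1 and without WT replicate 2, and 6 did without any 1 of the EMS-25 or UV-715 libraries. No log2 fold change then moved by more than 0.49. Without the intensity trend, 3 of the 8 lost their call (adjusted p at most 0.0917). Against a change of 1.5-fold, 6 of the 8 lost it (adjusted p at most 0.282). A pseudocount of 0.1 lost 3 of the 8 (adjusted p at most 0.098) and moved log2 fold changes by up to 3.31.

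**Figure D3:**
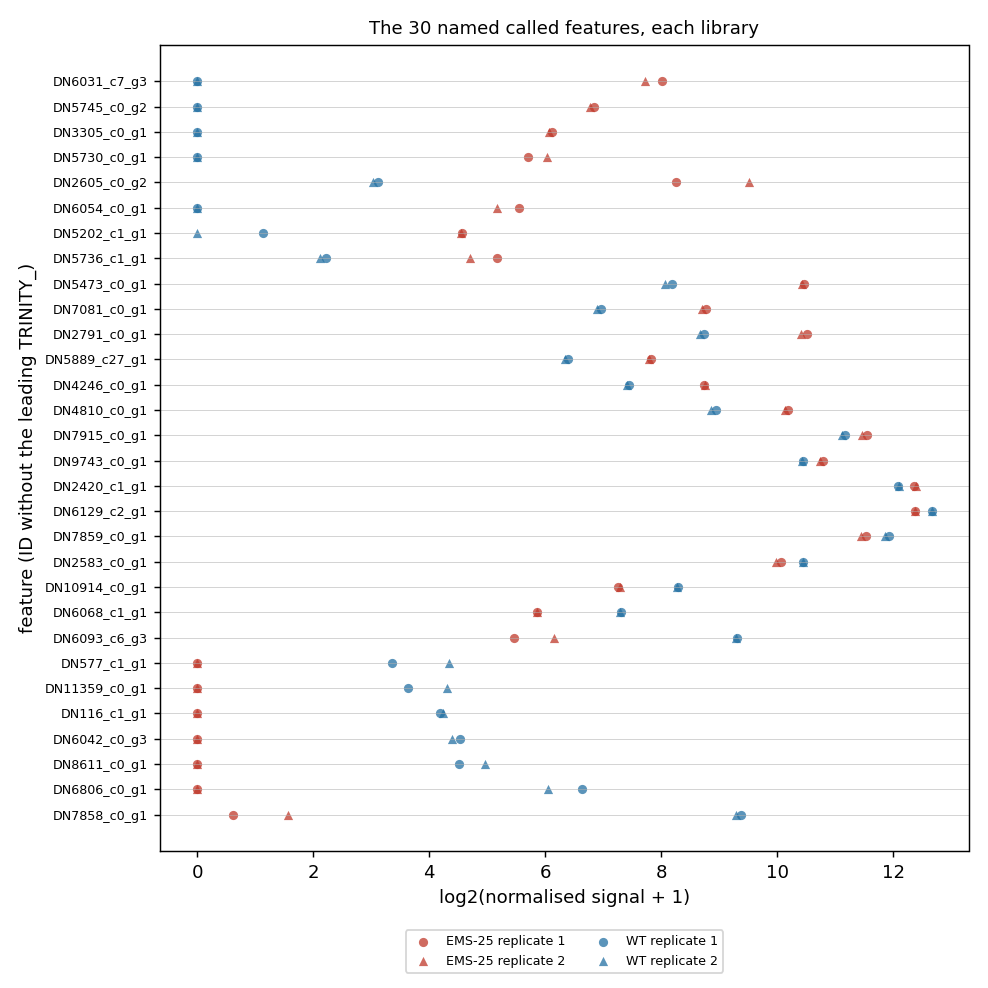
Log2(normalised signal + 1) in each library for the 30 called features chosen by rank, ordered by log2 fold change. Red marks EMS-25, blue marks WT, circles replicate 1 and triangles replicate 2. No red point lies within the blue range of its feature, as the rule of choice required, and the features in the middle rows have the narrowest spread.

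The smallest p-values belonged to moderate changes of features with high signal. TRINITY_DN5473_c0_g1 had 1409 and 1367 in EMS-25, against 290.2 and 268 in WT (log2 fold change 2.31, SE 0.05; limma adjusted p 0.000187). TRINITY_DN2791_c0_g1 had 1460.0 and 1362 in EMS-25, against 423 and 407 in WT (log2 fold change 1.76, SE 0.06, adjusted p 0.000791). These were 4.98-fold and 3.40-fold higher by the ratio of means. TRINITY_DN7081_c0_g1 had 433 and 414 in EMS-25, against 123 and 117 in WT (log2 fold change 1.81, SE 0.05, adjusted p 0.00036). TRINITY_DN4246_c0_g1 had 423 and 433 in EMS-25, against 173 and 168 in WT (log2 fold change 1.32, SE 0.04, adjusted p 0.000527). TRINITY_DN4810_c0_g1 had 1166 and 1116 in EMS-25, against 490.3 and 459.8 in WT (log2 fold change 1.26, SE 0.05, adjusted p 0.000914). In all 5 the lower EMS-25 library stood at more than 2-fold the higher WT library.

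The list of smallest p values also held a further rise and 2 falls. TRINITY_DN5889_c27_g1 had 225 and 221 in EMS-25, against 83.0 and 80.1 in WT (log2 fold change 1.44, SE 0.06, adjusted p 0.00176). The sum over the 70 features of its cluster was 5733 ± 349 in EMS-25 and 6210 ± 499 in WT (adjusted p 0.469). The sums of clusters TRINITY_DN4246 and TRINITY_DN6068 were called (adjusted p 0.000144 and 0.00268). TRINITY_DN10914_c0_g1 had 151 and 155 in EMS-25, against 309.7 and 309.0 in WT (log2 fold change -1.01, SE 0.04, adjusted p 0.00176). TRINITY_DN6068_c1_g1 had 56.9 in both EMS-25 libraries, against 156 in both WT libraries (log2 fold change -1.44, SE 0.07, adjusted p 0.00227). All 8 of these features were also called with EMS-25 and WT fitted alone (adjusted p at most 0.0135) and against a change of 1.5-fold (adjusted p at most 0.0404). Without the intensity trend, 5 of them lost their call (all but TRINITY_DN5473_c0_g1, TRINITY_DN7081_c0_g1 and TRINITY_DN2791_c0_g1; adjusted p at most 0.108). Without WT replicate 2 or EMS-25 replicate 1, 4 of them lost their call, and 2 did without EMS-25 replicate 2, with an adjusted p of at most 0.0639 and no log2 fold change moved by more than 0.06. TRINITY_DN5473_c0_g1 and TRINITY_DN7081_c0_g1 were called in all 17 alternative fits.

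UV-715 stood on different sides of EMS-25 in this set. Its mean was above that of EMS-25 for TRINITY_DN5473_c0_g1 (1388 ± 29.7 in EMS-25, against 2135 ± 20.8 in UV-715; limma adjusted p 0.00273). TRINITY_DN7081_c0_g1 and TRINITY_DN4246_c0_g1 were likewise lower in EMS-25 than in UV-715 (adjusted p 0.000788 for each). TRINITY_DN2791_c0_g1 was higher in EMS-25, at 1411 ± 69.6, against 831 ± 53.9 in UV-715 (adjusted p 0.00278). TRINITY_DN5889_c27_g1 was higher in EMS-25 than in UV-715, with 223 ± 2.53 against 43.7 ± 0.33 (adjusted p 0.000373). TRINITY_DN10914_c0_g1 was lower in EMS-25 than in UV-715, at 153 ± 2.56 against 314 ± 5.21 (adjusted p 0.000608). For TRINITY_DN4810_c0_g1 and TRINITY_DN6068_c1_g1, the test between the mutants gave adjusted p 0.779 and 0.655. Both comparisons use the same EMS-25 libraries.

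The most abundant transcripts that were called moved by less than 1.5-fold. TRINITY_DN2420_c1_g1 had 5249.6 and 5339 in EMS-25, against 4315 and 4369 in WT (log2 fold change 0.29, SE 0.03; limma adjusted p 0.0248). TRINITY_DN7915_c0_g1 had 2974 and 2800.4 in EMS-25, against 2288 and 2217 in WT (log2 fold change 0.36, SE 0.05, adjusted p 0.0299). TRINITY_DN9743_c0_g1 had 1774 and 1703 in EMS-25, against 1395 and 1366 in WT (log2 fold change 0.33, SE 0.04, adjusted p 0.0265). These 3 rose. TRINITY_DN6129_c2_g1 had 5315 and 5285 in EMS-25, against 6461 and 6473 in WT (log2 fold change -0.29, SE 0.03, adjusted p 0.0233). TRINITY_DN7859_c0_g1 had 2953 and 2777 in EMS-25, against 3897 and 3701 in WT (log2 fold change -0.41, SE 0.05, adjusted p 0.0269). TRINITY_DN2583_c0_g1 had 1069 and 1001 in EMS-25, against 1388 and 1390.3 in WT (log2 fold change -0.42, SE 0.04, adjusted p 0.0167). All 6 lost their call in the fit of EMS-25 and WT alone (adjusted p 0.0632 to 0.0838) and without any 1 of the 6 libraries (adjusted p 0.0626 to 0.286), as well as without the intensity trend (0.383 to 0.478), while no log2 fold change moved by more than 0.05.

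The most abundant transcripts were largely shared between the strains. Of the 100 features with the highest mean in EMS-25, 95 were also among the 100 highest in WT. Over the 100 features with the highest mean of both strains, 6 were called (4 higher, 2 lower) and the widest log2 fold change was 0.55 in either direction. TRINITY_DN9721_c0_g1, the feature with the highest signal, had 12849 and 11913 in EMS-25, against 13570 and 12474 in WT (95% interval of the log2 fold change -0.23 to 0.09, adjusted p 0.654 by limma). TRINITY_DN2420_c0_g1 had 9831 and 9821 in EMS-25, against 9848 and 9674 in WT (interval -0.08 to 0.10). The strains overlapped in both. None of these was called, and the intervals of the next features, TRINITY_DN6992_c0_g1 (-0.16 to 0.04), TRINITY_DN5508_c1_g1 (-0.01 to 0.17) and TRINITY_DN216_c0_g1 (-0.05 to 0.17), also held 0.

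For most abundant transcripts the 95% intervals bounded the size of the change. These intervals are per feature, without adjustment over the features. Of 474 features with a mean of at least 300, 69 were called and 426 (89.9%) had a 95% interval within 1.5-fold in either direction. Among the 405 that were not called, 394 were bounded in this way and 11 were not. A further 32 were called and bounded. With EMS-25 and WT fitted alone, 25 of the 474 were called, 2 of them bounded, and 428 were bounded in all. Of the 474, 2 were called without WT replicate 2, 10 without WT replicate 1, 4 and 5 without EMS-25 replicate 1 or 2, and 20 and 19 without UV-715 replicate 1 or 2, with at most 1 of them bounded. Without the intensity trend 3 were called, none of them bounded, and 345 were bounded in all. The median half-width of the interval was 0.13 on the log2 scale.

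Assembly clusters showed whether calls came singly or together. The 225 called features lay in 208 clusters, and 12 clusters held 2 or more calls, in 10 of them in a single direction. In 8 of the 12 the sum over the cluster was called too. These clusters were singled out after their values were seen.

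Cluster TRINITY_DN4974 was lower in EMS-25 throughout. All 7 of its features had both EMS-25 libraries below both WT libraries, and 4 of them were called. Over all features tested, 20.9% lay below WT in this way and 0.433% were called lower. TRINITY_DN4974_c1_g1 had 159 and 147 in EMS-25, against 315 and 321 in WT (log2 fold change -1.05, SE 0.06; limma adjusted p 0.00303). TRINITY_DN4974_c2_g1 had 41.8 and 51.5 in EMS-25, against 149 and 158 in WT (log2 fold change -1.70, SE 0.11, adjusted p 0.0049). TRINITY_DN4974_c5_g1 and TRINITY_DN4974_c0_g1 also fell (adjusted p 0.0167 and 0.0475). The remaining 3 had log2 fold changes of -0.72, -1.42 and -0.94 and were not called (adjusted p 0.125, 0.103 and 0.181). Summed over the cluster, EMS-25 had 508 ± 24.3 and WT 1204 ± 99.9 (log2 fold change -1.24, SE 0.07, adjusted p 0.00078). The sum in UV-715 was 555, and the test between the mutants gave an adjusted p of 0.351.

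Cluster TRINITY_DN6054 was higher in EMS-25 throughout. Its 9 features all had a higher mean in EMS-25, and 3 were called. For 8, all but TRINITY_DN6054_c1_g1, the EMS-25 libraries lay above both WT libraries. Over all features tested, 23.2% lay above WT in this way and 0.867% were called higher. Apart from TRINITY_DN6054_c0_g1, the calls were TRINITY_DN6054_c6_g2, with 64.5 and 64.2 in EMS-25, against 16.6 and 10.5 in WT (log2 fold change 2.20, SE 0.23; limma adjusted p 0.017), and TRINITY_DN6054_c5_g1. TRINITY_DN6054_c5_g1 had 207 and 197 in EMS-25, against 128 and 118 in WT (log2 fold change 0.71, SE 0.07, adjusted p 0.0167). The cluster sum was 513 ± 8.44 in EMS-25 and 241 ± 21.0 in WT (log2 fold change 1.09, SE 0.09, adjusted p 0.00459). EMS-25 also exceeded UV-715, whose sum was 206 (adjusted p 0.000637).

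**Figure D4:**
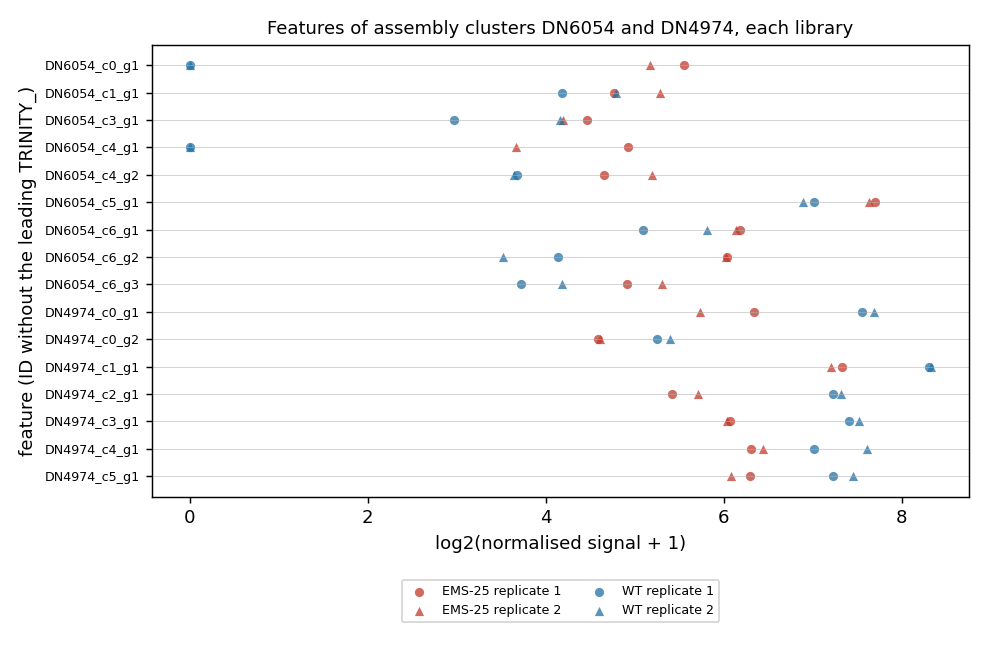
Log2(normalised signal + 1) in each library for the 9 features of cluster TRINITY_DN6054 (upper rows) and the 7 of cluster TRINITY_DN4974 (lower rows), with EMS-25 in red, WT in blue, circles for replicate 1 and triangles for replicate 2. Red points lie to the right of blue ones in the upper rows, apart from overlaps in TRINITY_DN6054_c1_g1, and to the left of them in all lower rows.

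Smaller clusters gave the same kind of picture. In TRINITY_DN3750, TRINITY_DN3750_c1_g1 had 30.6 and 28.5 in EMS-25, against 3.55 and 4.85 in WT (log2 fold change 2.56, SE 0.24; limma adjusted p 0.0132). TRINITY_DN3750_c0_g1 had 39.7 and 37.6 in EMS-25, against 8.0 and 11.5 in WT (log2 fold change 1.90, SE 0.22, adjusted p 0.0244). The TRINITY_DN3750 sum rose to 68.2 ± 2.96 in EMS-25, against 13.9 ± 3.36 in WT (adjusted p 0.00302). It was 62.2 ± 2.62 in UV-715 (adjusted p 0.73 for EMS-25 against UV-715). TRINITY_DN3135_c2_g1 had 71.5 and 54.6 in EMS-25, against 293 and 340 in WT (log2 fold change -2.32, SE 0.16, adjusted p 0.00551). The sum of the 3 features of TRINITY_DN3135 fell to 212 ± 13.0 in EMS-25, against 546 ± 18.2 in WT (adjusted p 0.000741). It was lower still in UV-715, at 121 ± 6.67 (adjusted p 0.00126 for EMS-25 against UV-715). Of the 8 cluster sums, 6 lost their call without either EMS-25 library, 3 without WT replicate 2 and 1 without WT replicate 1 (adjusted p at most 0.17), and none without a UV-715 library or in the fit of EMS-25 and WT alone. Without the intensity trend, 7 of the 8 lost it (adjusted p at most 0.345), with those of TRINITY_DN4974, TRINITY_DN6054, TRINITY_DN3750 and TRINITY_DN3135 among them.

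In 2 clusters called features moved in opposite directions. TRINITY_DN5456_c0_g1 rose to 763 and 744 in EMS-25, against 528 and 533 in WT (log2 fold change 0.51, SE 0.04; limma adjusted p 0.00616). TRINITY_DN5456_c1_g1 fell to 629 and 644 in EMS-25, against 839.7 and 860.2 in WT (log2 fold change -0.42, SE 0.04, adjusted p 0.0126). Their cluster sum was 1729 ± 6.54 in EMS-25 and 1716 ± 9.73 in WT (adjusted p 0.927). Within a single component, TRINITY_DN3392_c0_g1 had 1008 and 968 in EMS-25, against 703 and 693 in WT (adjusted p 0.007), while TRINITY_DN3392_c0_g2 had 86.9 and 86.1 in EMS-25, against 203 and 239.6 in WT (adjusted p 0.00555). Their sum was 1074 ± 29.0 in EMS-25 and 919 ± 18.9 in WT (adjusted p 0.0517). How the authors' counting divided reads between such features is not stated in the sources used here, so the split is uncertain.

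Component and cluster sums were tested as features were, over fewer tests. Of 14883 component sums, 285 (1.91%) were called, with 185 higher (1.24%) and 100 lower (0.672%). With EMS-25 and WT fitted alone 160 were called (1.08%), with 109 higher (0.732%) and 51 lower (0.343%). Of the 285 component calls, 78 held no called feature, and 54 of these are components of 1 feature, where the sum is the feature itself. Of 10526 cluster sums, 212 (2.01%) were called, with 139 higher (1.32%) and 73 lower (0.694%). With those 4 libraries alone 115 were called (1.09%), with 76 higher (0.722%) and 39 lower (0.371%). Of the 222 components that held a called feature, 207 had a called sum. Since 158 called features are alone in their component, where the sum is the feature itself, this count is not further support. A called feature shared its component with another in 67 cases, and the component sum was not called in 16 of these. Without WT replicate 2 there were 33 component and 28 cluster calls, without WT replicate 1 there were 96 and 82, without EMS-25 replicate 1 there were 26 and 11, and without EMS-25 replicate 2 there were 18 and 13. Without UV-715 replicate 1 or 2 there were 149 and 138 component calls.

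Counting features by separation alone, without an estimate of spread, gave a far wider set. Both EMS-25 libraries were above or below both WT libraries for 7640 features (44.2%), 4016 of them higher (23.2%) and 3624 lower (20.9%). With no difference between the strains, no ties and libraries alike in spread, a share of 0.333 would be separated in this way. With a difference of at least 2-fold on the value plus 1, 2318 remained (13.4%), 1271 higher (7.35%) and 1047 lower (6.05%). These gathered at low signal, with 23.9% of features at 3 to 10, 2.76% at 30 to 100 and 0.73% at 1000 or more. With a pseudocount of 5 the count was 1280, with 640 in each direction. At a mean of at least 100, 30 of 1620 features were separated by 2-fold or more, and 27 of these were called.

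Complete switches at a clear level were rare. Taking 20 as the lowest value, a level chosen after the data had been seen, 8 features were at 20 or more in both EMS-25 libraries and listed at 0 in both of WT, and 8 were the other way round. In the first set, the 5 described above were called. TRINITY_DN5189_c0_g2 (21.8 and 22.1 in EMS-25), TRINITY_DN4302_c1_g1 (21.0 and 31.6) and TRINITY_DN3507_c1_g1 (20.4 and 21.8) were not (adjusted p 0.0922, 0.0782 and 0.199 by limma). In the second set TRINITY_DN8611_c0_g1, TRINITY_DN6042_c0_g3 and TRINITY_DN6806_c0_g1 were called. The widest of the 5 not called, TRINITY_DN1517_c0_g1, was listed at 0 in EMS-25 and had 26.8 and 52.4 in WT (adjusted p 0.102). UV-715 was listed at 0 in both libraries for 6 features of the first set and 1 of the second. WT replicate 2 listed the most features at 0, and a 0 in this table cannot be read as absence.

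In each strain replicate 1 is deeper than replicate 2, and the change can be read within each replicate number. Because no called feature overlapped between the strains, all 225 had the same sign in both pairs. Calls favour features with little spread within strains, so a like size of change in both pairs is not further support. The log2 fold change of replicate 1 and that of replicate 2 differed by a median of 0.09, and by more than 0.5 in 15 features. For TRINITY_DN5473_c0_g1 it was 2.28 in the replicate 1 pair and 2.35 in the replicate 2 pair. For TRINITY_DN10914_c0_g1 it was -1.03 and -0.99, and for TRINITY_DN2605_c0_g2 it was 5.14 and 6.48. TRINITY_DN2605_c0_g2 had the widest difference of all called features.

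**Figure D5:**
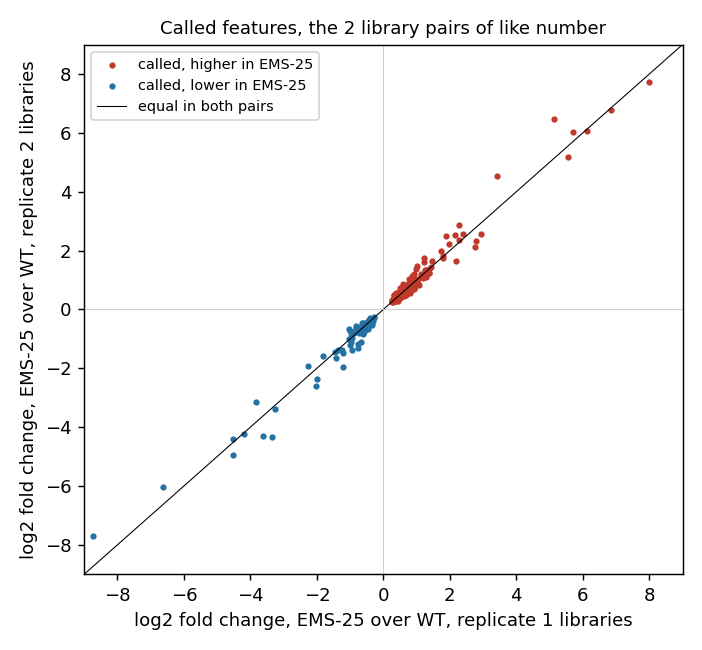
Log2 fold change of EMS-25 over WT (value + 1) in the replicate 1 libraries (horizontal axis) and the replicate 2 libraries (vertical axis), 1 point per called feature, with features called higher in red and lower in blue and a line of equal change. Points lie close to the line for small changes and lie farther from it for some of the steepest, with TRINITY_DN2605_c0_g2 (5.14 and 6.48) farthest. Calls favour features with little spread within strains, so closeness to the line is not further support.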

How the data were processed

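RNA of 2 libraries each of EMS-25, UV-715 and WT was measured. The deposited values are a signal per assembled feature, which the authors had normalised before deposit. Per the submitters' processing notes, RSEM, edgeR, Trimmomatic 0.32 and FastQC 0.11.5 were among the tools, and their order is not stated. How the assembly was made is not given here. The values are not whole reads, so no count model was used and the absolute depth is unknown. The filter kept features that reached 1 in 2 or more of the 4 EMS-25 and WT libraries. R 4.3.3 and limma 3.58.1 were used to model log2(value + 1) by strain over all 6 libraries, moderating variances by empirical Bayes with a trend on intensity. Residual degrees of freedom were 3 and prior ones 2.8. All p-values are two-sided and were adjusted over all features tested by the Benjamini-Hochberg method. Fold changes on this scale understate those of low features. Component and cluster sums were tested in the same way. Exact permutation of 2 against 2 libraries cannot go below 0.333 and was not used.

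Named features are the 8 highest and 8 lowest called log2 fold changes (mean of at least 5, no overlap), the 8 with the smallest p, the 3 most abundant called in each direction and the 5 with the highest mean, called or not. Others were chosen after their values were seen. The features and lists were chosen with earlier results of these data known. Lists of pathway genes could not be matched to the IDs. Alternatives changed the pseudocount, filter, scaling, trend, weights, libraries and the replicate block. Python 3.11.15, numpy 2.4.6, pandas 2.3.3 and matplotlib 3.10.9 were used for summaries and plots.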

Additional observations from a re-analysis of the deposited data

How the results depend on the processing

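The number of calls depended on the libraries and on the trend. The direction of a call cannot turn in most of these fits, since its groups do not overlap. Features called numbered 85 with EMS-25 and WT alone, 59 without the intensity trend, 22 against a change of 1.5-fold, and 4 to 60 when 1 library was left out. Component sums called numbered 160, 49 and 18 to 149 under the first, second and last of these, and cluster sums 115, 37 and 11 to 115. The other fits gave 168 to 266 features. The calls without the intensity trend were mostly not those made with it. Of them, 17 of the 59 features, 19 of the 49 component sums and 14 of the 37 cluster sums were called in both. Features without overlap between the groups at 2-fold numbered 1280 with a pseudocount of 5. Changes near 0 that were not called turned sign: TRINITY_DN2420_c0_g1 (-0.0092 with equal sums, -0.041 with centred medians; -0.0032 to 0.022 over the fits without 1 library), component TRINITY_DN2420_c0 (-0.011, -0.026; -0.0088 to 0.024), cluster TRINITY_DN5456 (-0.0083, -0.018) and cluster TRINITY_DN6099 (-0.011, -0.021; -0.043 to 0.059). With the replicate block 193 features were called (135 higher, 58 lower), 166 of them among the 225, and 7 of the 30 named calls were lost. Same-numbered EMS-25 and WT libraries deviated together with a correlation of 0.078 over all features and 0.30 at a mean of at least 100 (0.39 for EMS-25 and UV-715, 0.37 for WT and UV-715), and with 2 pairs the numbers are not taken as pairing. The cause of these differences was not tested. Low signal limits the calls, and unknown depth leaves no counting interval.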

Other observations

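Of 78 called component sums without a called feature, 54 are components of 1 feature, where nothing was summed. The other 24 have several features, and 15 of these sums were higher in EMS-25 and 9 lower. The following were chosen after their values were seen. Component TRINITY_DN4868_c0 summed to 24.6 and 27.2 in EMS-25, against 102 and 99.6 in WT (log2 fold change -1.92, SE 0.10; limma adjusted p 0.00107). Its features, TRINITY_DN4868_c0_g1 with 5.14 and 14.0 in EMS-25, against 58.0 and 32.8 in WT, and TRINITY_DN4868_c0_g2 with 19.4 and 13.2 in EMS-25, against 43.8 and 66.8 in WT, were not called. Their values moved in opposite ways between the libraries of a strain, and the sums stayed close. Component TRINITY_DN3637_c0 summed to 108 and 103 in EMS-25, against 37.7 and 41.8 in WT (log2 fold change 1.39, SE 0.14; limma adjusted p 0.011). Component TRINITY_DN5821_c0 summed to 358 and 342 in EMS-25, against 218 and 216 in WT (log2 fold change 0.68, SE 0.05; limma adjusted p 0.0031).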
